A study of Mus musculus with 8 samples.

Results

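The genes described here make up the machinery with which the endoplasmic reticulum (ER) takes in, folds, glycosylates and clears newly made proteins. They were chosen by name: 50 gene symbols in 10 groups by role, read from a table of 10987 coding transcripts. Of these 50, 39 were listed and 11 were not and are not analysed here (Dnajb9, Dnajc3, Sdf2l1, Creld2, Ssr1, Spcs1, Sec11c, Stt3b, Derl1, Ero1l and Srp14). The rule goes by name alone, and the list was drawn up with earlier results of these data known. The study compared mouse oligodendrocyte progenitor cells (OPCs) with the oligodendrocytes (OLs) made from them, to ask how decoding of mRNA differs between these cell types. Ribosome footprints, the mRNA fragments that ribosomes protect from micrococcal nuclease, and total RNA from an aliquot of the same lysate were sequenced from 2 cultures of each cell type, which gave 8 libraries. OPCs were derived from epiblast stem cells of strain 129S/SvEv and grown with 20 ng/mL bFGF and 20 ng/mL PDGFA. OLs were OPCs switched to medium with 100 ng/mL noggin, 100 ng/mL IGF-1, 10 µM cyclic AMP, 10 ng/mL NT3 and 40 ng/mL T3, the thyroid hormone. As limits of the model, plates of a culture were pooled at lysis, some cells remain undifferentiated in OL cultures, and lysis was with Triton X-100 without separating ER-bound from free ribosomes.

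As background, a protein bound for the membrane or for secretion carries a signal sequence that the signal recognition particle binds on the ribosome. The ribosome then docks on the Sec61 channel, signal peptidase removes the signal sequence, and the oligosaccharyltransferase adds a preformed sugar tree to asparagines. Chaperones, lectins and protein disulfide isomerases fold the chain, ER-associated degradation returns failed chains to the cytosol, and the sensors Atf6 and Ern1 together with the transcription factor Xbp1 set the amount of this machinery in the unfolded protein response. Oligodendrocytes make large amounts of myelin membrane, and its membrane-spanning proteins enter the ER by this route.

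The labels were compared with markers of each cell type. Of 7 oligodendrocyte markers listed, 7 were higher in OLs in RNA-seq, and their summed level went from 34.3 and 36.7 FPKM (fragments per kilobase of feature, scaled to the mapped reads of the library) in OPCs to 3743 and 3271 in OLs. OPC markers did not go the other way: their sum was 413 and 388 in OPCs and 728 and 821 in OLs, 4 of 7 were higher in OLs, none was lower, and Cspg4 was not listed. A large part of the rise in that sum was Gpr17, with 8.38 and 4.91 FPKM in OPCs and 221 and 271 in OLs. The 4 markers of cycling cells listed were lower in OLs in RNA-seq, with a sum of 255 and 294 in OPCs and of 69.2 and 58.7 in OLs. Of 6 astrocyte markers listed, 2 were higher and 1 was lower in RNA-seq, and their sum was 412 and 385 in OPCs and 425 and 352 in OLs. Summed neuronal markers were 24.7 and 16.2 in OPCs and 48.8 and 50.1 in OLs, and the 2 microglial and 2 pluripotent cell markers listed stayed at or under 0.501 FPKM in sum. The part of cell cycle or of cell type mixture in the results below was not tested. Estimated depth was between 77.9 and 249.2 Mb of aligned sequence, lowest in OL culture 2 (93.0 for footprints, 77.9 for RNA-seq), where 31.1% and 18.2% of transcripts were listed at 0. Spearman correlations of replicates across transcripts were between 0.925 for OL footprints and 0.979 for OPC footprints.

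The promoters of these genes are known for the ER stress element, a site that the unfolded protein response factors use, and its occurrence is shown here because members that hold it include genes past and not past the threshold below. The element was searched as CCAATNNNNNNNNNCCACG on both strands in RefSeq promoters of build GRCm38.p6, from 250 bases before to 50 bases after the start. It occurred in 39 of 32851 promoters (0.119%). Of the 39 listed members, 32 had a promoter in the set, and 6 of these 32 held the element (Calr, Canx, Hsp90b1, Hspa5, Pdia6 and Syvn1). A related form, ATTGGNCCACG, occurred in 12 promoters (0.0365%), among them those of Dnajb11 and Herpud1. The 8-base core TGACGTGG occurred in 222 promoters (0.676%) and in 0 of the members. These 3 motifs overlap in letters, since each holds CCACG or its reverse complement. A match is a description of letters and not a site of binding. The windows of 30 bases follow, 5′ to 3′ on the strand of the gene, with the matched letters in capitals.
Hspa5, chr2:34772020-34772049, plus strand: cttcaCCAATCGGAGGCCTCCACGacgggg
Pdia6, chr12:17266486-17266515, plus strand: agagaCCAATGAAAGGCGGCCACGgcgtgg
Hsp90b1, chr10:86705632-86705661, minus strand: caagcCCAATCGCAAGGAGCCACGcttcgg
Hsp90b1, chr10:86705527-86705556, minus strand: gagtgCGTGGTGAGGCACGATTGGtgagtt
Calr, chr8:84847069-84847098, minus strand: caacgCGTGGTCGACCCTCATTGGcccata
Canx, chr11:50325794-50325823, minus strand: attgaCCAATCACCACGCTCCACGaagaat
Syvn1, chr19:6046527-6046556, plus strand: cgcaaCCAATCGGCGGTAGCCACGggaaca
Herpud1, chr8:94386368-94386397, plus strand: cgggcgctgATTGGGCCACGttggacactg

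All of these lie before the RefSeq start. Counted from it, they run from -44 to -26 in Syvn1, the nearest, to -212 to -194 for the farther element of Hsp90b1, whose nearer one reads in the opposite direction. For Hspa5, whose listed transcript begins further upstream (chr2:34771970), the element lies inside that transcript, and for Syvn1 the RefSeq start lies upstream of the first base of the listed transcript (chr19:6047080). The letters in the Dnajb11 promoter lie from 7 to 17 bases past the start.

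The members were abundant transcripts in every library. Their median level in RNA-seq was 71.3 and 80.6 FPKM in OPCs and 60.5 and 52.3 in OLs, while the median of all transcripts was between 5.45 and 7.41. In footprints, counted on the coding sequence (CDS), their median was 172 and 201 FPKM in OPCs and 198 and 199.7 in OLs, against 6.74 to 11.5 for all transcripts. Hspa5, the main Hsp70 chaperone of the ER, had the highest level of all members in each OPC library, with 388 and 413 FPKM in RNA-seq and 1480.4 and 1551 in footprints. At the low end, the sensor Ern1 was near 1 FPKM in RNA-seq and at 0.304, 0, 0.713 and 0 in footprints, so that it fell below the minimum of 1 FPKM for a test. Together the members took 1.51% and 1.69% of the RNA-seq bases on listed transcripts in OPCs and 1.06% and 1.22% in OLs. Of the footprint bases they took 2.24% and 2.52% in OPCs and 1.75% and 2.17% in OLs. In both kinds of library the 2 OL values were below the 2 OPC values.

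**Figure D1:**
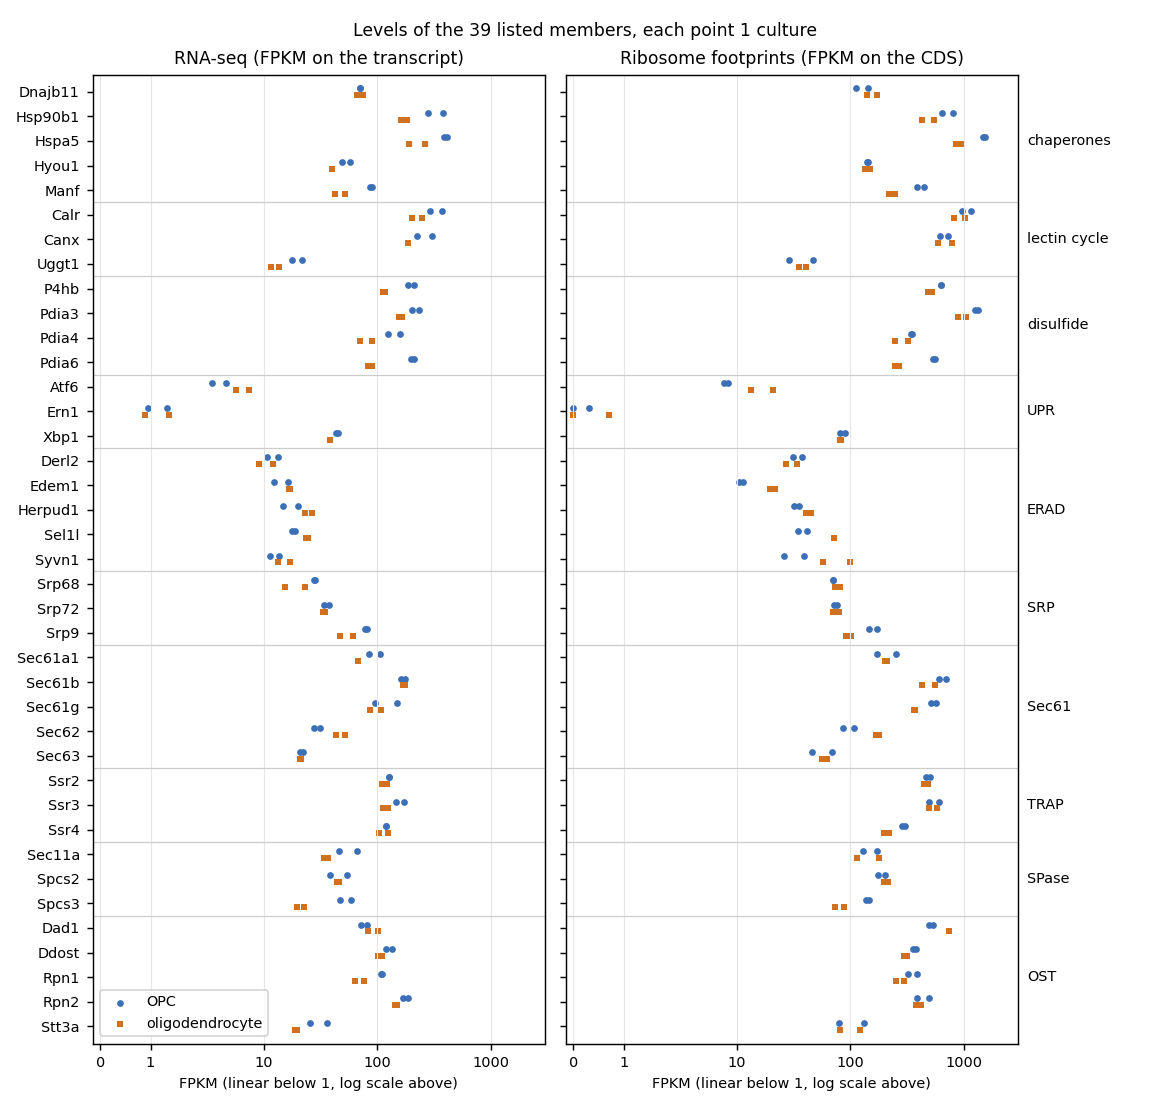
FPKM of the 39 listed members in each culture (x axis, linear below 1 and logarithmic above), in RNA-seq on the transcript (left) and in footprints on the CDS (right), grouped by role (UPR, unfolded protein response; ERAD, ER-associated degradation; SRP, signal recognition particle; TRAP, translocon-associated protein complex; SPase, signal peptidase; OST, oligosaccharyltransferase); blue circles are the 2 OPC cultures and orange squares the 2 OL cultures. Pdia6 and Spcs3 are lower in OLs in both panels, and Sec62 is higher in both.

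Changes were tested with limma on log2(FPKM + 0.1) across all transcripts, with adjusted p-values (Benjamini-Hochberg, threshold 0.05) and log2 changes as OLs against OPCs. These tests are unpaired, and members gained with the replicate number as a block are named in the section on processing. In RNA-seq, 9 of the 39 members passed the threshold (23.1%), while 33.2% of all 8346 transcripts tested did. Hspa5, Hsp90b1, Manf, Pdia4, Pdia6, P4hb, Spcs3 and Rpn1 were lower in OLs and Sec62 was higher, where 20.2% of all transcripts were lower and 13.0% were higher. The log2 changes of all members had a median of -0.30, and 30 of 39 were negative, where 59.96% of all transcripts were. All transcripts together had a median of -0.23. Median-ratio scaling moved the median of all transcripts to -0.05 and that of the members to -0.12, with 15 positive and 24 negative (Ern1, Srp72, Sec63, Ssr2, Ssr4 and Spcs2 turned positive), and the share of higher calls among all calls from 39.1% (1083 higher, 1689 lower) to 51.5% (1344 higher, 1264 lower). With that scaling 5 member calls remained (P4hb, Pdia6, Spcs3, Manf and Sec62). Without a variance trend in limma 2 members passed (Pdia6 and Spcs3), and 2075 of the 8346 transcripts did. Each call rests on few cultures. Leaving out 1 culture in turn gave a member median of -0.33 (OPC culture 1), -0.30 (OPC culture 2), -0.32 (OL culture 1) and -0.35 (OL culture 2). The medians of all transcripts were -0.22, -0.22, -0.30 and -0.14. Most or all of the calls above were lost in each of these fits, which leave 1 culture in a group. The number of calls over all transcripts fell in each as well. In these bulk samples fewer cells of a type and less RNA per cell cannot be told apart.

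In footprints, 10 of the 38 members tested passed (26.3%), where 23.6% of all 8342 transcripts did. Hspa5, Manf, Pdia6, Srp9, Sec61g, Spcs3 and Ssr4 were lower in OLs, and Sel1l, Sec62 and Dad1 were higher, where 10.8% of all transcripts were lower and 12.8% higher. The median log2 change of the members was -0.05, with 23 of 38 negative (55.47% of all transcripts), and that of all transcripts was -0.16. Hspa5, Manf, Pdia6, Spcs3 and Sec62 passed in both kinds of library, each in the same direction in both. With median-ratio scaling 4 member calls remained (Sel1l, Srp9, Sec62 and Pdia6). Without a variance trend in limma 0 members passed, and 1036 of the 8342 transcripts did. Leaving out 1 culture in turn gave a member median of -0.29 (OPC culture 1), 0.034 (OPC culture 2), 0.017 (OL culture 1) and -0.18 (OL culture 2). Without OPC culture 2 or OL culture 1, 21 of 38 were positive. The medians of all transcripts were -0.15, -0.14, -0.31 and 0.07. Most or all of the calls above were lost in each of these fits, which leave 1 culture in a group. The number of calls over all transcripts rose without OL culture 1 and fell in the others.

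**Figure D2:**
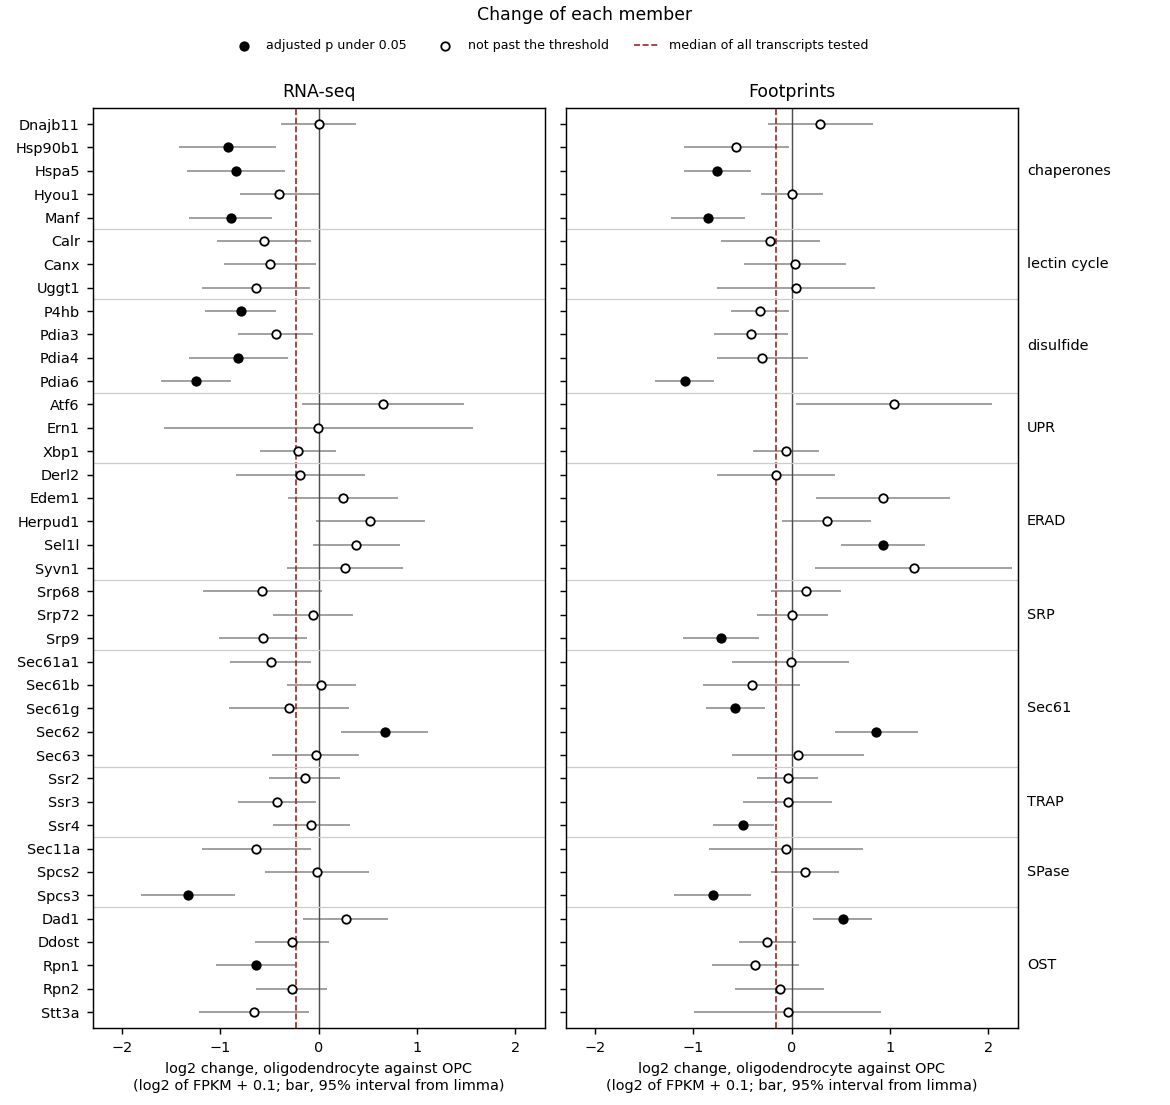
Log2 change of each member, OLs against OPCs, in RNA-seq (left, 39 members) and footprints (right, 38 members), with 95% intervals from limma; filled points have an adjusted p under 0.05, the solid line is no change and the dashed line is the median of all transcripts tested (-0.23 and -0.16). Chaperones and disulfide isomerases lie mostly left of both lines in RNA-seq, and members of ER-associated degradation other than Derl2 lie to the right in both panels.

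The ER chaperones and their partners held 3 of the 8 members lower in RNA-seq, among 5 tested, where 20.2% of all transcripts were lower. Hspa5 (chr2:34771970-34777547, plus strand, 9 exons), which binds unfolded chains and keeps the stress sensors silent, stood at 388 and 413 FPKM in OPCs and at 189 and 265 in OLs in RNA-seq. Both OL values were below both OPC values, with a log2 change of -0.84 (SE 0.20, adjusted p = 0.0259). Its footprints were 1480.4 and 1551 in OPCs and 848 and 947 in OLs, a log2 change of -0.76 (SE 0.12, adjusted p = 0.0236), so that RNA-seq and footprints of this chaperone fell by similar amounts. Hsp90b1 (chr10:86690840-86705509, minus strand), the Hsp90 of the ER, went from 279 and 382 to 161 and 183 FPKM in RNA-seq, a log2 change of -0.93 (SE 0.20, adjusted p = 0.0192). For its footprints, 639 and 800.1 in OPCs and 427 and 546 in OLs, the change of -0.57 did not pass (adjusted p = 0.116). Hsp90b1 shares 415 bases of its exons with a gene on the other strand and 196 with genes on its own strand, and no strand option was given for the counting. Manf (chr9:106887415-106891979, minus strand), a secreted neurotrophic factor that also binds Hspa5 in the ER, had 86.9 and 88.9 FPKM in OPCs and 42.5 and 52.3 in OLs in RNA-seq, a log2 change of -0.90 (SE 0.17, adjusted p = 0.0128). Its footprints, 388 and 449.6 in OPCs and 217 and 247 in OLs, fell by 0.85 on the log2 scale (SE 0.14, adjusted p = 0.0228). The other 2 members of this group did not pass in either kind of library. Hyou1, a large Hsp70 relative that exchanges nucleotide on Hspa5, had a log2 change of -0.40 in RNA-seq (adjusted p = 0.114) and of 0.00 in footprints. Dnajb11, a J-domain partner of Hspa5, stood at 70.4 and 70.3 FPKM in OPCs and 65.8 and 75.5 in OLs in RNA-seq, with overlapping groups.

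The disulfide isomerases form and rearrange the cysteine bridges of folding proteins, and 3 of the 4 listed were lower past the threshold in RNA-seq. Of all transcripts, 20.2% were. Pdia6 (chr12:17266545-17284770, plus strand, 13 exons) had 199 and 212 FPKM in OPCs and 82.9 and 90.4 in OLs in RNA-seq. Its footprints were 532 and 562 in OPCs and 246 and 268 in OLs. Both OL values were below both OPC values in each, with log2 changes of -1.25 in RNA-seq (SE 0.15, adjusted p = 0.00314) and of -1.09 in footprints (SE 0.11, adjusted p = 0.00942). In RNA-seq the call of Pdia6 was kept under each alternative tried but the one without OPC culture 2 (adjusted p = 0.0537). P4hb (chr11:120560298-120573253, minus strand), the classical disulfide isomerase and a subunit of collagen prolyl hydroxylase, went from 188 and 212 to 113 and 117 FPKM in RNA-seq, a log2 change of -0.80 (SE 0.15, adjusted p = 0.0121). Its footprints of 629 and 634 in OPCs and 483 and 527 in OLs gave a change of -0.33 that did not pass (adjusted p = 0.109). Pdia4 had 124 and 159.7 FPKM in OPCs and 70.5 and 90.3 in OLs in RNA-seq, a log2 change of -0.82 (SE 0.20, adjusted p = 0.0293), and a footprint change of -0.30 that did not pass (adjusted p = 0.271). For Pdia3, the partner of the lectin chaperones, groups did not overlap in either kind of library, and changes of -0.44 and -0.42 did not pass (adjusted p = 0.0790 and 0.104).

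In the lectin chaperone cycle, where Canx and Calr hold glycoproteins and Uggt1 marks misfolded ones for another round, 0 of 3 members passed in either kind of library. Of all transcripts, 33.2% passed in RNA-seq and 23.6% in footprints. With the replicate number as a block in limma, Calr and Canx passed in RNA-seq (adjusted p = 0.0140 and 0.0394). Calr had 294 and 373 FPKM in OPCs and 203 and 249.9 in OLs in RNA-seq, a log2 change of -0.56 (adjusted p = 0.0736). Canx had 224 and 304 in OPCs and 185 and 186 in OLs, with -0.49 (adjusted p = 0.0959), and Uggt1 had a change of -0.64 (adjusted p = 0.0756). Both OL values were below both OPC values in RNA-seq for all 3 genes, as for 44.2% of all transcripts tested, and groups overlapped in footprints for all 3, where the log2 changes were -0.22, 0.03 and 0.04.

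Sensors of the unfolded protein response did not pass. Atf6 (chr1:170704674-170867771, minus strand), a membrane-bound transcription factor cut free under stress, had 3.50 and 4.68 FPKM in OPCs and 7.32 and 5.65 in OLs in RNA-seq, and 7.73 and 8.36 in OPCs and 20.8 and 13.3 in OLs in footprints. The OL values lay above the OPC values in both kinds of library, with log2 changes of 0.65 (SE 0.34, adjusted p = 0.184) and 1.04 (SE 0.36, adjusted p = 0.120), and neither passed. Xbp1, whose mRNA is spliced by Ern1 to give the active factor, had 42.9 and 45.5 FPKM in OPCs and 38.6 and 37.9 in OLs in RNA-seq. Its footprints were 89.1 and 81.4 in OPCs and 81.5 and 82.1 in OLs. The changes of -0.21 (95% interval -0.59 to 0.18) and -0.06 (-0.39 to 0.27) did not pass. These values do not separate the spliced from the unspliced form. Ern1 was at 1.38 and 0.941 FPKM in OPCs and 1.44 and 0.894 in OLs in RNA-seq.

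In ER-associated degradation 4 of 5 log2 changes were positive in both kinds of library, with medians of 0.27 in RNA-seq and 0.93 in footprints. Of these 5, 1 passed in footprints and 0 in RNA-seq, where 23.6% and 33.2% of all transcripts did. Sel1l (chr12:91806043-91849157, minus strand, 21 exons), the scaffold that binds the ubiquitin ligase Syvn1 and stabilises it, had footprints of 34.6 and 41.2 FPKM in OPCs and 71.8 and 72.0 in OLs. Its log2 change was 0.93 (SE 0.16, adjusted p = 0.0250). In RNA-seq it had 17.7 and 18.9 in OPCs and 23.6 and 24.2 in OLs, a change of 0.38 that did not pass (adjusted p = 0.154). Syvn1 had footprints of 25.9 and 39.3 in OPCs and 57.7 and 98.8 in OLs. This change of 1.24, the largest among members in footprints, had an SE of 0.37 and did not pass (adjusted p = 0.0854), and both cell types had a higher second culture. With the replicate number as a block in limma, Syvn1 passed in footprints (adjusted p = 0.0225). Equal numbers are not stated to mark matching cultures. Edem1, a mannosidase-like protein that sends glycoproteins to this route, had footprints of 10.5 and 11.2 in OPCs and 21.8 and 19.7 in OLs, a change of 0.93 that did not pass (adjusted p = 0.0695). Herpud1, a membrane protein of the same ligase complex, had 20.0 and 14.9 FPKM in OPCs and 26.7 and 23.1 in OLs in RNA-seq, with changes of 0.53 there and 0.35 in footprints that did not pass. Derl2, a channel-like member, was the only one with negative changes in both (-0.19 and -0.16), and its groups overlapped in both.

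Across the promoters shown above, Hspa5, Hsp90b1 and Pdia6 were lower in OLs in RNA-seq. Calr and Canx, which hold the same letters, did not pass (log2 changes of -0.56 and -0.49). Syvn1, Herpud1 and Dnajb11 had RNA-seq changes of 0.27, 0.53 and 0.00 that did not pass. P4hb, Pdia4 and Rpn1 were lower in RNA-seq, and none of the 3 motifs was found in their promoters. Manf and Spcs3, both lower in RNA-seq, had no promoter in the set used.

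At the entry to the ER, the signal recognition particle had 1 of 3 listed subunits past the threshold in footprints and 0 of 3 in RNA-seq. Of all transcripts, 23.6% passed in footprints and 33.2% in RNA-seq. Srp9, which with Srp14 pauses elongation, had footprints of 172 and 147 FPKM in OPCs and 102 and 91.3 in OLs, a log2 change of -0.72 (SE 0.14, adjusted p = 0.0356). In RNA-seq it had 77.6 and 80.6 in OPCs and 60.5 and 47.0 in OLs, a change of -0.57 that did not pass (adjusted p = 0.0580). Every 30-base word of the Srp9 CDS (100% of 229) is also found elsewhere in the genome, so that its reads could be placed at near copies. Srp68, which with Srp72 binds the RNA of the particle, had 28.5 and 27.4 FPKM in OPCs and 23.0 and 15.2 in OLs in RNA-seq and 69.6 and 69.7 in OPCs and 72.8 and 81.7 in OLs in footprints. Both OL values were below the OPC values in RNA-seq and above them in footprints, with changes of -0.57 and 0.15 that did not pass (adjusted p = 0.125 and 0.443). Srp72 had log2 changes of -0.06 and 0.00, with overlapping groups.

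In the Sec61 translocon, 2 of 5 genes passed in footprints, in opposite directions, and 1 of 5 in RNA-seq. Of all transcripts, 23.6% passed in footprints and 33.2% in RNA-seq. Sec62 (chr3:30792875-30821263, plus strand, 8 exons), which helps small and weakly recognised proteins into the channel and acts as a receptor in the turnover of the ER by autophagy, had 27.8 and 31.1 FPKM in OPCs and 51.4 and 42.9 in OLs in RNA-seq. Its footprints were 86.0 and 107 in OPCs and 179 and 169.5 in OLs. OL values were above OPC values in both, with log2 changes of 0.67 (SE 0.18, adjusted p = 0.0364) and 0.86 (SE 0.15, adjusted p = 0.0284), and Sec62 was the only member higher in OLs past the threshold in RNA-seq. It shares 509 exon bases with a gene on the other strand. Sec63, its partner that recruits Hspa5 to the channel, had 20.8 and 22.3 FPKM in OPCs and 21.4 and 20.7 in OLs in RNA-seq, and its groups overlapped in both kinds of library (log2 changes of -0.03 and 0.06). Sec61a1, the pore, had 85.3 and 106 in OPCs and 67.8 and 67.4 in OLs in RNA-seq, a change of -0.49 that did not pass (adjusted p = 0.0720), while its footprints overlapped (171 and 251 in OPCs, 201 and 210.4 in OLs). It shares 549 exon bases with a gene on the other strand. Sec61g, a small subunit, had footprints of 573 and 519 in OPCs and 364 and 368 in OLs, a log2 change of -0.57 (SE 0.11, adjusted p = 0.0329), with overlapping groups in RNA-seq (95.3 and 148, then 87.0 and 107). Sec61b, the other small subunit, had 175 and 162 FPKM in OPCs and 174 and 169 in OLs in RNA-seq, and footprints of 702 and 599 in OPCs and 554 and 430.4 in OLs, a change of -0.41 (adjusted p = 0.186). Of the 30-base words of the CDS, 100% in Sec61g and 87.3% in Sec61b occur elsewhere in the genome.

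Ssr2, Ssr3 and Ssr4 belong to the translocon-associated protein complex, which sits beside the channel. Ssr4 (chrX:73787062-73790826, plus strand) had footprints of 285 and 302 FPKM in OPCs and 198 and 219 in OLs, a log2 change of -0.49 that passed (SE 0.11, adjusted p = 0.0488) and did not without a minimum level. In RNA-seq Ssr4 had 119 and 119.7 in OPCs and 104 and 124 in OLs, with overlapping groups and a change of -0.07. Ssr2 and Ssr3 had footprint changes of -0.04 each and RNA-seq changes of -0.14 and -0.43, and did not pass.

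Signal peptidase held the member with the largest fall in RNA-seq, Spcs3, while its other 2 listed subunits did not pass. Spcs3 (chr8:54520433-54529998, minus strand, 5 exons), a subunit needed for its activity, had 47.3 and 59.0 FPKM in OPCs and 22.6 and 19.5 in OLs, a log2 change of -1.33 (SE 0.19, adjusted p = 0.00594). Its footprints were 136 and 145 in OPCs and 73.6 and 87.6 in OLs, a log2 change of -0.81 (SE 0.14, adjusted p = 0.0272). Spcs2, an accessory subunit, had 38.1 and 54.6 in OPCs and 44.5 and 45.7 in OLs in RNA-seq, with overlapping groups and changes of -0.02 (95% interval -0.55 to 0.51) and 0.14. Sec11a, the catalytic subunit, had 45.7 and 66.8 in OPCs and 34.1 and 37.1 in OLs in RNA-seq, a change of -0.63 that did not pass (adjusted p = 0.0773), and overlapping footprints (129 and 170.2 in OPCs, 114 and 178 in OLs).

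The oligosaccharyltransferase had 1 listed subunit lower in RNA-seq and another higher in footprints, of 5. Of all transcripts, 20.2% were lower in RNA-seq and 12.8% were higher in footprints. Rpn1 (chr6:88084482-88105304, plus strand), which holds substrates near the catalytic site, had 109.5 and 107 FPKM in OPCs and 63.2 and 76.4 in OLs in RNA-seq, a log2 change of -0.64 (SE 0.16, adjusted p = 0.0310). Its footprints of 323 and 389 in OPCs and 251 and 299.5 in OLs gave -0.37 and did not pass (adjusted p = 0.180). Dad1 (chr14:54235479-54254104, minus strand), a small subunit whose loss leads to cell death, had footprints of 495 and 537 in OPCs and 735 and 739 in OLs. The log2 change of 0.52 (SE 0.11, adjusted p = 0.0402) was opposite in sign to the other 4 subunits. In RNA-seq Dad1 had 71.3 and 81.6 in OPCs and 102 and 83.5 in OLs, a change of 0.27 that did not pass (adjusted p = 0.266). Stt3a, the catalytic subunit that works beside the channel, had 25.7 and 36.3 in OPCs and 19.0 and 19.6 in OLs in RNA-seq, a change of -0.66 that did not pass (adjusted p = 0.0712), and overlapping footprints. Ddost and Rpn2 had changes of -0.27 and -0.28 in RNA-seq and of -0.25 and -0.12 in footprints, none past the threshold.

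**Figure D3:**
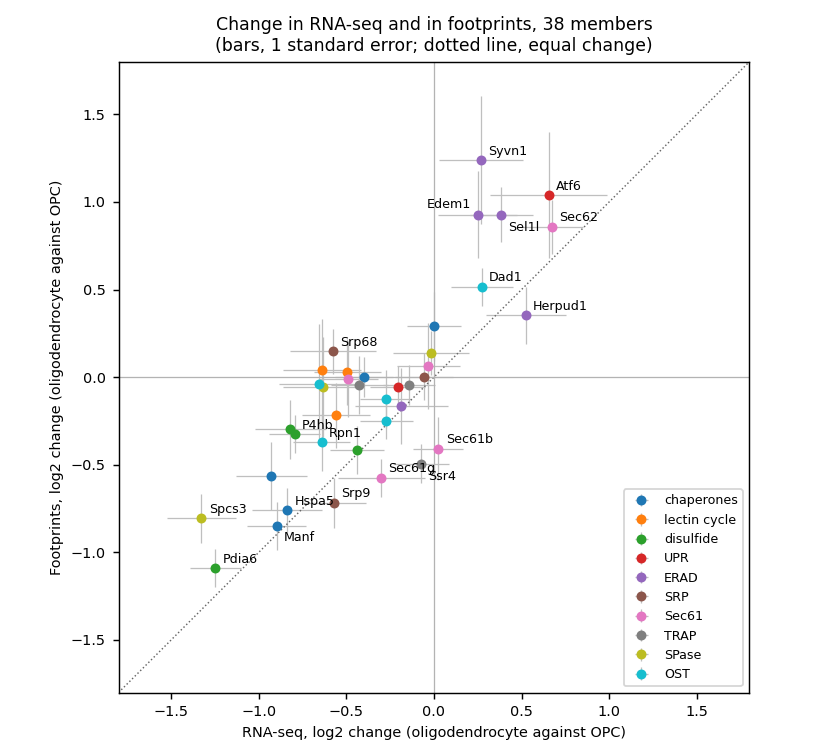
Log2 change in RNA-seq (x axis) and in footprints (y axis), OLs against OPCs, for the 38 members tested in both, coloured by role, with bars of 1 standard error; the dotted line marks equal change. Of the 38 points, 33 lie above that line, while Ssr4, Sec61b, Sec61g, Srp9 and Herpud1 lie below it.

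Ribosome density (RD), footprint FPKM divided by RNA-seq FPKM, compares the 2 readouts for each gene. Among the 38 members tested, the median RD was 2.70 and 2.85 in OPCs and 3.21 and 3.53 in OLs, and over all 8056 transcripts it was 1.70 and 1.74 in OPCs and 2.01 and 1.74 in OLs. Members with an RD above the median of all transcripts numbered 34 (culture 1) and 37 (culture 2) of 38 in OPCs and likewise in OLs. This is a description, since footprints were scaled to the CDS and RNA-seq to the whole transcript. The change in RD between cell types, tested as an interaction over all 8 libraries, passed for 1 of 8056 transcripts (0.0124%) and for 0 of the 38 members, while 387 transcripts and 3 members (P4hb, Sel1l and Srp68) had an unadjusted p under 0.05. This fit takes the footprint and RNA-seq libraries of a culture as independent, though both came from 1 lysate. With a term for each culture in limma, 0 of 8056 transcripts and 0 members passed. In that fit 539 transcripts and 7 members had an unadjusted p under 0.05. The changes of 33 members were positive and those of 5 negative, with a median of 0.25, where 42.28% of all transcripts were negative and their median was 0.10. With median-ratio scaling 21 of 38 were positive, with medians of 0.093 for members and -0.06 for all transcripts.

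P4hb had an RD of 3.34 and 3.00 in OPCs and 4.28 and 4.49 in OLs, a log2 change of 0.47 (SE 0.16, unadjusted p = 0.0227, adjusted p = 0.875). Sel1l had 1.96 and 2.18 in OPCs and 3.05 and 2.97 in OLs, a change of 0.54 (SE 0.21, unadjusted p = 0.0384, adjusted p = 0.875). Srp68 had 2.44 and 2.55 in OPCs and 3.17 and 5.36 in OLs, a change of 0.72 (SE 0.29, unadjusted p = 0.0462, adjusted p = 0.875). Without OL culture 1, which leaves only the less deep OL culture, the change of Srp68 was 1.1. In all 3 the OL cultures lay above the OPC cultures, as they did in 23 of the 38 members (60.5%) and in 30.2% of the 7719 transcripts with RNA-seq above 0 in each culture. The members are more abundant than most transcripts, and the part of level in that share was not tested. Among the 38 members tested, Dad1 had the highest RD, 6.94 and 6.58 in OPCs and 7.20 and 8.86 in OLs. Edem1 had the lowest of these 38, 0.648 and 0.916 in OPCs and 1.31 and 1.17 in OLs. Groups were apart with OLs below OPCs for Sec61b (4.02 and 3.70, then 3.19 and 2.55) and Ssr4 (2.40 and 2.52, then 1.91 and 1.77). These are 2 of the 38 members (5.26%), where 12.7% of the 7719 transcripts had OLs below OPCs. For Hspa5, RD was 3.81 and 3.76 in OPCs and 4.48 and 3.58 in OLs, and its change of 0.08 had a 95% interval of -0.52 to 0.68.

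**Figure D4:**
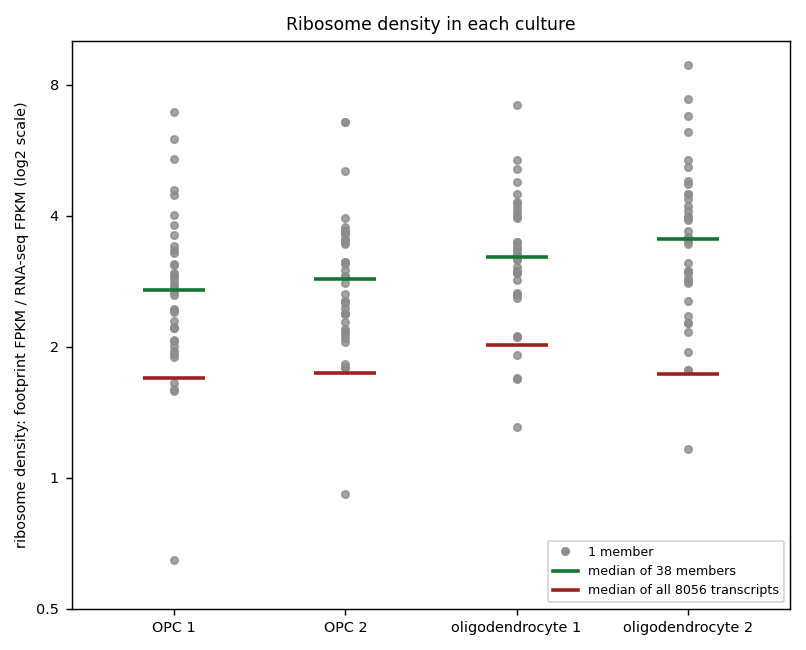
Ribosome density, footprint FPKM over RNA-seq FPKM on a log2 axis, for each of 38 members (grey points) in the 4 cultures, with the median of the members (green) and of all 8056 transcripts (red). The members' median lies above that of all transcripts in each culture, at 2.70 and 2.85 in OPCs and 3.21 and 3.53 in OLs.

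Other genes of the same pathways were read from 10 further lists with 128 symbols, 94 of them in the table. In RNA-seq 7 of 91 tested were higher in OLs and 11 were lower, with a median log2 change of -0.13, where 13.0% of all transcripts were higher and 20.2% were lower. In footprints 11 of 93 were higher and 5 were lower, with a median of 0.14, where 12.8% of all transcripts were higher and 10.8% were lower. The remaining factors of the unfolded protein response held 4 of the genes higher in footprints, of 10 tested, and none lower (Atf6b, Ddit3, Creb3l2 and Creb3), with 2 of 9 higher (Ddit3 and Creb3) and 1 lower (Nfe2l1) in RNA-seq. Other ER-associated degradation factors had 1 of 11 higher in RNA-seq (Selenos) and 0 of 11 past the threshold in footprints. Dolichol-linked sugar synthesis had 2 of 19 lower in RNA-seq (Alg8 and Dpm1) and 1 of 19 higher in footprints (Alg2), and the further oligosaccharyltransferase subunits had 2 of 5 lower in each (Krtcap2 and Ostc in RNA-seq, Krtcap2 and Ost4 in footprints). Of the other oxidoreductases and isomerases, 2 of 13 were higher (Fkbp9 and Tmx4) and 3 lower (Tmx1, Fkbp2 and Erp29) in RNA-seq, with 2 higher and 2 lower of 14 in footprints. N-glycan trimming had 1 gene higher (Edem2) and 1 lower (Mogs) of 5 in both. In the remaining lists, the SRP and its receptor had 2 of 6 higher in footprints (Srp54a and Srp54c, near-identical copies), a list of the ER membrane protein complex with Tmem208, Tmco1 and the Tram proteins had 1 of 11 higher in both (Emc7, of the complex) and 1 lower in RNA-seq (Tram1, which is not part of it), other co-chaperones had 1 of 8 lower in RNA-seq (Cnpy3), and tail-anchored protein insertion had 0 of 4 in both.

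Among those past the threshold, the largest rises in footprints were of Ddit3, Edem2 and Creb3l2. Ddit3, a transcription factor of prolonged stress, had 1.31 and 1.34 FPKM in OPCs and 10.6 and 9.27 in OLs, a log2 change of 2.81 (SE 0.52, adjusted p = 0.0311). Its OPC values lie close to the minimum level of 1 FPKM, which limits this fold. Edem2, which starts mannose trimming ahead of degradation, had 4.76 and 5.58 in OPCs and 19.6 and 18.0 in OLs, a change of 1.85 (SE 0.32, adjusted p = 0.0266). Creb3l2, an ER-bound factor known for raising secretory capacity, had 31.8 and 39.5 in OPCs and 104 and 91.8 in OLs, with 1.46 (SE 0.18, adjusted p = 0.0131). All 3 had OL values well above both OPC values. With the replicate number as a block in limma, Ddit3 and Edem2 did not pass in footprints (adjusted p = 0.0780 and 0.0627). Atf6b did not either (adjusted p = 0.0682), while Creb3l2 passed (adjusted p = 0.0231). The largest falls past the threshold in footprints were of Mogs, the glucosidase that trims the first sugar, with a log2 change of -1.09 (adjusted p = 0.0252), of Krtcap2 with -1.06 (adjusted p = 0.0115) and of Erp29 with -0.95 (adjusted p = 0.0174). Transcripts of Ddit3, Emc7, Creb3, Krtcap2 and Erp29 overlap genes on the other strand. That of Ddit3 also shares 105 exon bases with another annotated gene on its own strand.

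In RNA-seq the largest rises past the threshold were of Emc7 (15.1 and 15.7 FPKM in OPCs, 38.4 and 34.9 in OLs, log2 change 1.24, adjusted p = 0.00546), Edem2 (1.13, adjusted p = 0.0229) and Creb3 (1.09, adjusted p = 0.0156). Mogs fell from 30.3 and 26.9 to 11.5 and 13.3 (log2 change -1.20, adjusted p = 0.00862). Alg8, a glucosyltransferase of the sugar tree, had 10.2 in both OPC cultures and 1.25 and 0 in OLs, while its footprints of 20.0 and 34.6 in OPCs and 13.97 and 20.67 in OLs overlapped and did not pass (adjusted p = 0.310). Dpm1, the dolichol phosphate mannose synthase, had 17.6 and 15.5 FPKM in OPCs and was listed at 0 in both OL cultures, while its footprints were 53.5 and 56.6 in OPCs and 74.5 and 71.5 in OLs. Dpm1 was also the 1 transcript past the threshold in RD, and it did not pass with a term for each culture in limma (adjusted p = 0.131). Its listed transcript shares 895 exon bases with another gene on the same strand. An exact 0 in such a table can be a failed estimate, so no fold is given, and the calls of Dpm1 in RNA-seq and RD rest on those zeros.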

How the data were processed

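Of OPCs and OLs, 2 cultures each gave a footprint and an RNA-seq library, and all 8 columns of values were used. The authors deposited FPKM values. They removed adapters and very short reads with fastx_clipper, mapped them to GRCm38 with hisat2 (HISAT2 2.1.0 in the submitters' processing notes) and tabulated FPKM with stringtie (StringTie 1.3.5) and ballgown on canonical coding transcripts of Gencode vM9, for RNA-seq on the whole transcript and for footprints on the CDS. No strand option was given, and the filter behind the listed transcripts is not given in the sources used here. Footprint FPKM on a short CDS rest on few positions.

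The 50 members, their groups and the other lists were chosen with earlier results of these data known. FPKM were used as deposited. limma 3.58.1 (R 4.3.3) was fitted on log2(FPKM + 0.1) with a variance trend, apart for RNA-seq and footprints (4 libraries each, mean of at least 1 FPKM) and with an interaction over 8 libraries for RD. P-values are two-sided and adjusted by Benjamini-Hochberg over all transcripts, with a threshold of 0.05, and fold changes of low genes are understated by the pseudocount. With 2 cultures a group, an exact permutation test cannot give a p below 0.333 and was not used. The study calls the cultures biological replicates, and nothing states that they came from separate animals or stem cell lines, so p-values measure the spread between these cultures.

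Per the study's methods, the OLs came from the corresponding OPC replicates. The methods do not say that equal numbers mark the matching cultures, so the main tests are unpaired. The replicate number as a block was an alternative, beside other pseudocounts, minimum levels, no trend, median-ratio scaling and leaving out each culture.

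Depth was estimated from the steps in FPKM times length, and the listed transcripts hold between 63.9% and 74.4% of aligned bases. Coordinates, exons and overlaps are from Gencode vM21 (GRCm38), in which all 10987 transcripts were found. Promoter sequences are RefSeq's (GRCm38.p6). Words of 30 bases shared with other places were counted on the GRCm38 chromosomes.

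All 39 listed members are named. From the other lists, genes past the threshold are named, with values for the 3 largest rises and falls.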

Additional observations from a re-analysis of the deposited data

How the results depend on the processing

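Changing the pseudocount (0.01 or 1) or the minimum (none, or 5 FPKM) kept the count of member calls at 9 or 10 in both RNA-seq and footprints, and the minimum of 5 FPKM gave an RNA-seq median over members of -0.35. Without the trend, 2 members passed in RNA-seq (0 higher, 2 lower), and in footprints 1036 transcripts and 0 members (0 higher, 0 lower) passed, where 10 members had an unadjusted p under 0.05. Median-ratio scaling gave 5 members in RNA-seq (4 lower) with a median of -0.12, and 4 in footprints (2 lower). With the replicate block, 16 members passed in RNA-seq, the same 9 with Calr, Canx, Pdia3, Srp9, Sec61a1, Sec11a and Stt3a, and 15 were lower. In footprints 14 passed, the same 10 with Hsp90b1, Pdia3, Sec61b and Syvn1. In RD the block was the culture instead, which joins the footprint and RNA-seq libraries of 1 lysate. There 0 members passed, and 7 had an unadjusted p under 0.05. Over all transcripts, 3323 of 8346 passed with the block in RNA-seq (2772 without it) and 1735 of 8342 in footprints (1969 without it). Whether equal numbers pair the cultures is not stated. After subtracting each group mean, the OPC and OL cultures with equal numbers correlated across transcripts with r = 0.108 in RNA-seq and 0.0860 in footprints. In RD the count over all transcripts was 3 with pseudocount 0.01, 14 without the trend, 3 with median-ratio scaling and 0 with the culture as block. The median over members was 0.093 with median-ratio scaling.

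Leaving out each culture in turn gave, in RNA-seq, between 364 and 2599 transcripts, 0 to 5 members (0 higher, 0 to 5 lower) and a median over members between -0.35 and -0.30. Footprints gave between 0 and 3442 transcripts, 0 to 3 members (0 to 1 higher, 0 to 2 lower) and a median between -0.29 and 0.034. That median changed sign without OPC culture 2 (0.034) and without OL culture 1 (0.017). In RD there were between 0 and 883 transcripts, 0 to 1 members (0 to 1 higher) and a median between 0.23 and 0.30. These fits leave a lone culture in 1 group, which is assumed to vary like the other group. No called member changed sign under any alternative. Over all alternatives and single members, a call was lost in 40 values for RNA-seq and 54 for footprints, and gained in 10, 4 and, for RD, 1. The causes were not tested. OL culture 2 had the lowest depth, which limits low members such as Ern1 and Atf6.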
